A study of Homo sapiens with 6 samples.

Results

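The genes examined here were 37 protein-coding genes that build heparan sulfate, modify it or carry it, chosen by gene name from a table of 58735 genes. They comprise 4 enzymes of the linkage region, 5 of chain polymerisation, 13 of sulfation and epimerisation, 3 of chain editing, 6 glypicans, 4 syndecans and 2 secreted matrix carriers. Of the 37 genes, 24 were counted often enough to be tested.

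Heparan sulfate is a long sugar chain attached to a protein core. It starts on a short linkage region and is extended in the Golgi. Its sugars are then sulfated at several positions, which sets the sites that growth factors bind. In bone and other connective tissues these chains hold factors such as FGF and BMP proteins at the cell surface and in the matrix.

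RNA was sequenced from cells labelled MG63, the name of an established human osteosarcoma line. One group of 3 samples was transfected with siRNA against FUBP1 (siFUBP1), a DNA- and RNA-binding protein, and the other group of 3 with a control (siMock). The harvest followed transfection by 48 h. The study asked which transcripts change when FUBP1 is silenced. The siRNA that was sequenced is not named in the sources used here, and no other cell line or clone was sequenced. The labels do not say that the samples came from separate cultures, so the p-values measure the spread between these samples, which may be technical.

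Each sample held 16309900 to 17484313 counted reads, and 24564 to 24899 genes had a count. FUBP1 was counted 3872 to 4331 times in siMock and 749 to 926 times in siFUBP1, a log2 fold change of -2.44, or -2.58 with the correction for base composition described below. Among 10 markers of the osteoblast lineage, COL1A2 and IBSP had no count in any sample, ALPL had 0 to 1, SP7 0 to 2 and SPARC 0 to 5. For COL1A1 the siMock samples held 1692 to 2000 counts and the siFUBP1 samples 769 to 792, and for VIM 2312 to 2589 and 3146 to 3731. RUNX2 counts were 6 to 8 without and 39 to 97 with the knockdown, those of SPP1 1 to 2 and 7 to 22, and those of BGLAP 2 to 4 and 8 to 13. Most defining markers of the lineage were thus at or near 0, which goes against the labelled cell type. The summed FPKM of the osteoblast list was 39.2 to 42.1 in siMock and 41.3 to 47.1 in siFUBP1. Nearly all of it came from VIM, at a mean of 28.6 and 37.4 FPKM, and COL1A1, at 11.4 and 4.61. The sum thus follows these genes and not the list as a whole. Of 5 epithelial markers, KRT8 was counted 28650 to 34970 times in siMock and 16128 to 18157 times in siFUBP1. KRT18 was counted 10755 to 12282 and 7498 to 7888 times. The other epithelial markers were low in all 6 samples, with EPCAM at 59 to 83 counts, CDH1 at 8 to 22 and KRT19 at 0 to 3. The summed FPKM of the epithelial list was 475.5 to 540.8 in siMock and 270.6 to 291.2 in siFUBP1. Of the markers tested, RUNX2 and VIM rose and COL1A1, KRT8 and KRT18 fell in siFUBP1 against siMock. Their part in the results below was not tested. In bulk RNA, fewer cells of a kind and less RNA per cell cannot be told apart.

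Levels are given as CPM, which are read counts scaled to a common library size by TMM, a correction for composition between libraries. Genes were compared on the counts by edgeR's quasi-likelihood test, with p-values adjusted by Benjamini-Hochberg over the 16116 genes tested. A gene is said to have risen or fallen where the adjusted p was below 0.05. Over all genes tested, 30.1% rose and 30.1% fell by this rule, 8.16% rose and 9.13% fell by a log2 fold change beyond 1, and the median log2 fold change was 0.002.

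Of the 24 heparan sulfate genes tested, 14 fell, 2 rose and 8 did not pass the test. Thus 58.3% of them fell against 30.1% of all genes tested. A fall beyond a log2 fold change of 1 was seen in 5 of them, SULF2, SDC3, GPC2, HS6ST1 and HSPG2, against 9.13% of all genes, and a rise of that size in 0. For 15 of the 24 genes the siFUBP1 values were all lower than the lowest siMock value, against 31.7% of all genes tested. For 4 they were all higher than the highest, against 32.2%. The median log2 fold change of the 24 was -0.48.

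Fold changes across the table also followed base composition. Among the 12356 genes averaging 50 counts or more, the median log2 fold change was 0.17 at 30 to 40% GC and -0.27 at 60 to 70% GC. A second fit therefore carried an offset for GC content and transcript length, and its value is given beside each gene named below that it moved by more than 0.1. In that fit the median of the 24 genes was -0.22 and that of all genes 0.02, with 11 of the 24 falling and 3 rising. Of all 16116 genes tested, 4792 fell and 5181 rose in it. The cause of the trend was not tested.

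**Figure D1:**
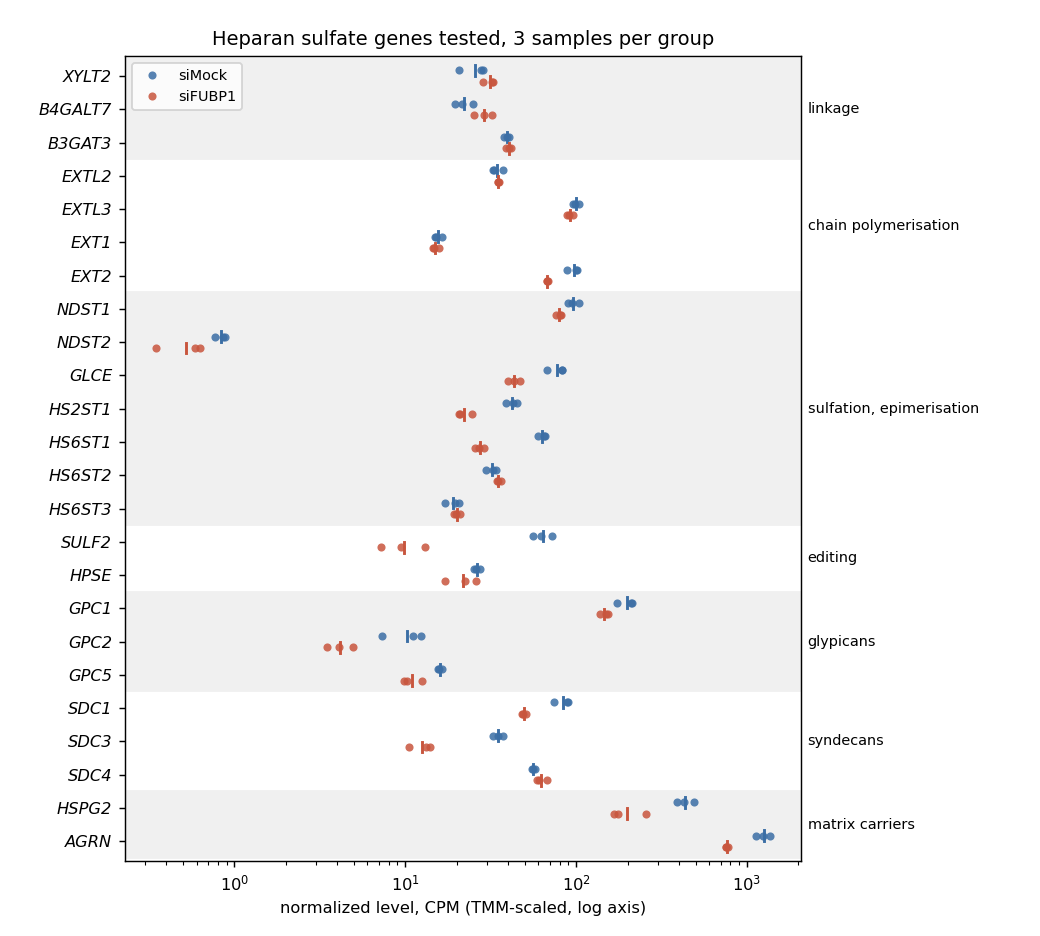
Normalized level (CPM, log axis) of the 24 heparan sulfate genes tested, ordered by role. Points are the 3 siMock (blue) and 3 siFUBP1 (red) samples and short bars are group means. The groups are widest apart for SULF2, at 56.0 to 72.3 CPM in siMock and 7.19 to 13.04 CPM in siFUBP1.

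The gene with the largest fold change of the 24 edits finished chains. SULF2 (ENSG00000196562, GRCh38 chromosome 20, 47656348 to 47786616, minus strand) encodes an extracellular sulfatase that takes sulfate off the 6-O position of heparan sulfate. It stood at 62.6, 56.0 and 72.3 CPM in the siMock samples and 9.40, 7.19 and 13.04 CPM in the siFUBP1 samples. The groups were far apart and did not overlap, and siFUBP1 averaged 15.5% of siMock. The log2 fold change was -2.69 with a standard error of 0.17 (edgeR adjusted p = 2.85e-08), and -2.56 after the GC and length correction. SULF2 shares 96 exonic bases with NCOA3 on the opposite strand. It is not stated whether reads were counted by strand, so reads from that overlap cannot be told apart.

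The paralogue SULF1 had 0 counts in 5 samples and 5 counts in siFUBP1 replicate 3, and was not tested. A count of 0 allows a level of up to 0.192 CPM in the shallowest library, by counting error only. Per gene length, the summed FPKM of the 2 sulfatases was 9.46 ± 1.197 in siMock and 1.49 ± 0.45 in siFUBP1 (SD, n = 3 each), and SULF2 made up 100% and 99.5% of it. The log2 ratio of SULF2 to SULF1, on FPKM with 0.1 added, was 6.57 ± 0.18 in siMock and 3.82 ± 0.22 in siFUBP1 (SD, n = 3 each). The difference was -2.76 by an exact two-sided permutation test (p = 0.1, the smallest that 3 against 3 allows). SULF1 was at 0 in nearly all samples, so the ratio follows SULF2 and the added constant.

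The other editing enzyme was HPSE, heparanase, which cuts the chain itself. It stood at 25.3, 26.0 and 27.5 CPM in siMock and 17.1, 25.8 and 22.2 CPM in siFUBP1, and siFUBP1 replicate 2 reached the siMock range. The log2 fold change of -0.27 only just passed the test (edgeR adjusted p = 0.0482). It did not pass in 11 of 16 alternative settings, among them DESeq2 (adjusted p = 0.131). Without siFUBP1 replicate 1 the log2 fold change was -0.12 (edgeR adjusted p = 0.409), and without any one of siMock 1, 2 and 3 and siFUBP1 3 the adjusted p was 0.051 to 0.118.

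An siRNA acts through its guide strand, whose seed can also pair with transcripts other than its target. The study lists 3 siRNAs against FUBP1, and their guide strands are shown, with the seed (guide bases 2 to 8) in capitals, so that they can be set against the genes that fell.
RNAi#1: uAAACUGAaugcgaacacc
RNAi#2: uAAGAGGUuugucagcacc
RNAi#3: uUUCUUCUaugaguugccg
A 7-base match to these seeds lay in the 3′ UTR of 19.9%, 12.2% and 19.4% of 12441 tested genes, and in 1, 2 and 3 of 22 tested heparan sulfate genes, with EXT1 and EXTL3 left out. Among the genes that fell, HS2ST1 held 3 matches to the third guide, GPC5 1, and NDST1 1 each to the first and second guide. XYLT2 and B3GAT3, of which the first rose and the second did not pass the test, also held matches. SULF2, SDC3, HS6ST1, GPC2 and HSPG2 held none in the transcript examined. A match is a description of these letters and not a site.

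The enzymes that place sulfate on the chain fell in several steps and not in others. HS6ST1 (ENSG00000136720, chromosome 2, 128236716 to 128318577, minus strand) transfers sulfate to the 6-O position, the position from which SULF2 removes it. It stood at 64.8, 65.4 and 59.5 CPM in siMock and 25.7, 29.1 and 27.0 CPM in siFUBP1. The groups did not overlap, and the log2 fold change was -1.21 with a standard error of 0.09 (edgeR adjusted p = 1.08e-11), or -0.92 after the GC and length correction. A near-identical processed copy, HS6ST1P1, had 2 to 14 reads per sample, against 434 to 1114 for HS6ST1, and the split of reads between the copies is uncertain.

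Its paralogues did not pass the test. HS6ST2 had 32.6, 33.7 and 29.8 CPM in siMock and 34.2, 34.8 and 36.1 CPM in siFUBP1, a log2 fold change of 0.13 (edgeR adjusted p = 0.228). HS6ST3 had 17.1, 19.6 and 20.7 CPM in siMock and 19.3, 19.8 and 20.9 CPM in siFUBP1, a log2 fold change of 0.07 (edgeR adjusted p = 0.623). The siFUBP1 values of HS6ST2 were all above those of siMock, and those of HS6ST3 overlapped them. Per gene length, HS6ST1 gave 60.4% ± 0.9 of the family's FPKM in siMock and 37.8% ± 1.5 in siFUBP1 (SD, n = 3 each), and HS6ST2 gave 28.6% ± 0.6 and 45.6% ± 1.1. HS6ST2 thus became the most abundant of the 3 by FPKM in every siFUBP1 sample. These FPKM were not corrected for GC content, which is 60.9% in HS6ST1 and 44.7% in HS6ST2. With the GC and length correction the log2 fold change was -0.92 for HS6ST1 and 0.07 for HS6ST2. Applied to their uncorrected siMock means of 13.4 and 6.34 FPKM, these would leave HS6ST1 narrowly above HS6ST2. The change of order was thus not kept by this reckoning, and the order was not tested. The summed FPKM of the family was 22.1 ± 1.0 in siMock and 15.3 ± 0.5 in siFUBP1 (SD, n = 3 each). The shares are a description and the difference between paralogues was not tested.

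GLCE, the epimerase that turns glucuronic into iduronic acid, fell from 67.5, 82.1 and 82.4 CPM in siMock to 43.2, 39.9 and 46.7 CPM in siFUBP1. HS2ST1, which sulfates that iduronic acid at the 2-O position, fell from 38.8, 42.4 and 45.0 CPM to 20.8, 20.7 and 24.4 CPM. Neither gene overlapped between groups. Their log2 fold changes were -0.84 ± 0.09 and -0.94 ± 0.10 (SE, edgeR adjusted p = 1.68e-08 and 7.58e-09), and became -0.97 and -1.05 after the GC and length correction. HS2ST1 shares 9.69% of its exonic bases with AC093155.3 on the same strand, which had 7 counts over all samples. Reads from that overlap cannot be told apart.

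NDST1, the N-deacetylase and N-sulfotransferase that opens the way for the later sulfations, held over 98% of its family's FPKM in both groups. It read 89.97, 103.3 and 94.5 CPM in siMock and 81.8, 80.1 and 75.9 CPM in siFUBP1, and fell by 0.28 on the log2 scale (edgeR adjusted p = 0.00417). After the GC and length correction the value was 0.03 (edgeR adjusted p = 0.708), so the call was lost and the direction turned. Without siMock replicate 2 the call was also lost (edgeR adjusted p = 0.0543). NDST2 had 6 to 15 counts per sample and a log2 fold change of -0.67 (edgeR adjusted p = 0.190), or -0.52 corrected, and it shares 82.9% of its exonic sequence with AC022400.6 on the same strand, so its count is uncertain. NDST3 and NDST4 had no count in any sample.

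The last sulfation step, at the 3-O position, which makes the antithrombin-binding form of the chain, had almost no transcripts. HS3ST1, HS3ST2, HS3ST3A1 and HS3ST3B1 had no count in any of the 6 samples, which allows up to 0.192 CPM in the shallowest. Of the other 3 genes of this family, HS3ST4 and HS3ST6 had no count and HS3ST5 had 1 to 7 counts per sample.

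Of the 3 linkage enzymes tested, 2 rose and 1 did not pass the test. XYLT1 had no count in any sample, so XYLT2 supplied all counted xylosyltransferase, the enzyme that puts the first sugar on the core protein. XYLT2 stood at 27.6, 28.4 and 20.5 CPM in siMock and 32.7, 32.1 and 28.6 CPM in siFUBP1. The groups did not overlap, and it rose by a log2 fold change of 0.29 (SE 0.11, edgeR adjusted p = 0.0277), or 0.58 after the GC and length correction. XYLT2 did not pass in 6 of 16 alternative settings, among them DESeq2 (adjusted p = 0.0634) and limma on log2(FPKM + 1) (adjusted p = 0.0763). Its rise also depended on single samples. Without siMock replicate 3 the log2 fold change was 0.15 (edgeR adjusted p = 0.235), and without siFUBP1 replicate 1 or 2 the adjusted p was 0.0968 or 0.0639. B4GALT7, which adds the first galactose, stood at 25.0, 21.5 and 19.6 CPM in siMock and 32.0, 29.1 and 25.2 CPM in siFUBP1. It rose by 0.38 (SE 0.11, edgeR adjusted p = 0.00402), or 0.56 after the correction. B3GAT3, which closes the linkage region with glucuronic acid, had a log2 fold change of 0.04 (edgeR adjusted p = 0.693), and 0.30 after the correction (edgeR adjusted p = 0.00148).

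Among the polymerising enzymes, EXT2 fell and the others did not pass the test. EXT1 and EXT2 form the enzyme complex that lengthens the chain. EXT2 stood at 88.8, 101.2 and 100.2 CPM in siMock and 67.7, 67.1 and 68.0 CPM in siFUBP1, a log2 fold change of -0.52 (SE 0.08, edgeR adjusted p = 3.64e-06) that was -0.53 after the correction. EXT1 was at 15.0 to 16.5 CPM in siMock and 14.6 to 15.8 CPM in siFUBP1, a log2 fold change of -0.05 (edgeR adjusted p = 0.718). EXTL3, which adds the first glucosamine, was at 96.3 to 103.6 and 87.9 to 95.8 CPM (log2 fold change -0.12, edgeR adjusted p = 0.183). EXTL2 was at 32.7 to 37.1 and 34.9 to 35.2 CPM (0.03, edgeR adjusted p = 0.800). EXTL1 had 0, 2 and 4 counts in siMock and 10, 10 and 2 in siFUBP1 and was not tested. The EXT and EXTL enzymes together gave 34.5 ± 1.8 FPKM in siMock and 28.7 ± 0.3 in siFUBP1 (SD, n = 3 each).

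**Figure D2:**
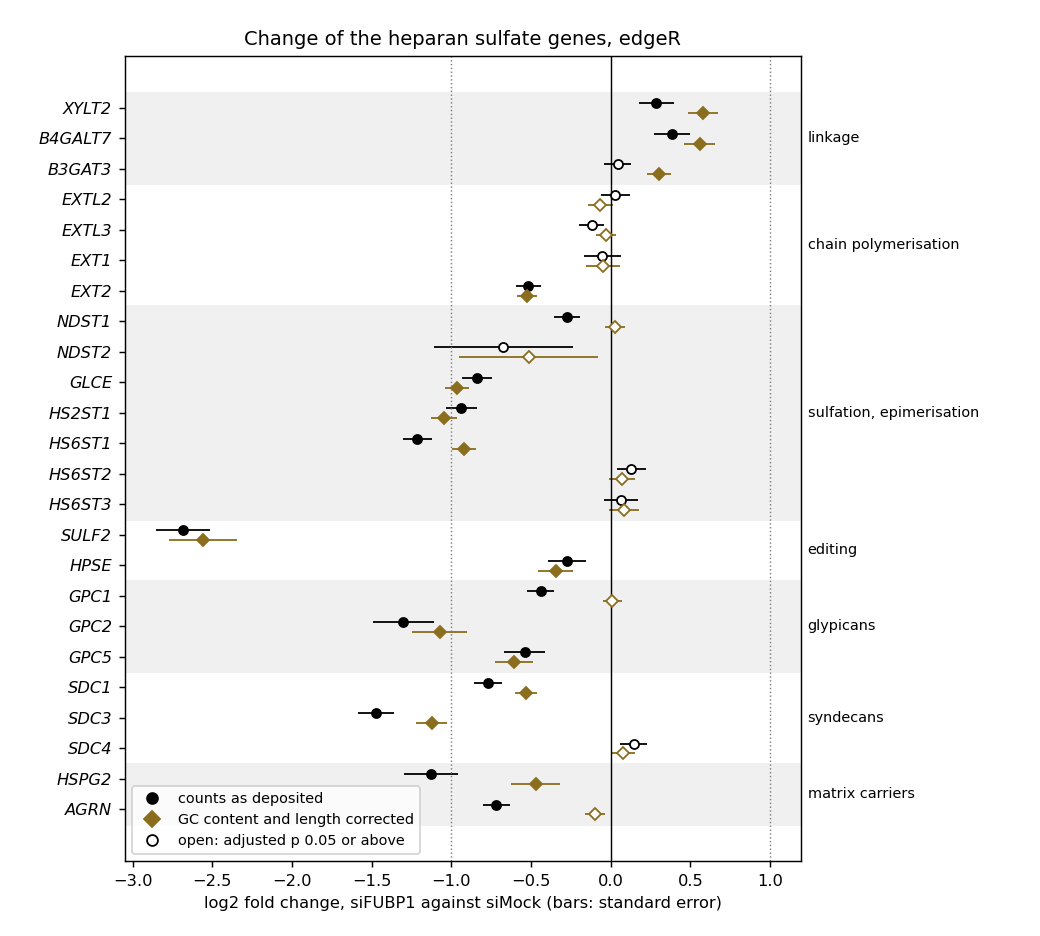
Log2 fold change of the 24 genes tested, siFUBP1 against siMock, with standard errors, from the counts as deposited (black circles) and with the offset for GC content and transcript length (brown diamonds). Open symbols have an adjusted p of 0.05 or above, and dotted lines mark -1 and 1. AGRN moved from -0.72 to -0.10 and GPC1 from -0.44 to 0.01, while SULF2 moved from -2.69 to -2.56 and HS2ST1 from -0.94 to -1.05.

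The core proteins that carry the chains fell in 7 of the 8 genes tested, against 30.1% of all genes tested, and the exception was SDC4. For GPC1 and AGRN the fall was not kept after the GC and length correction. Together the 12 carriers gave 225.3 ± 16.8 FPKM in siMock and 146.9 ± 3.9 in siFUBP1 (SD, n = 3 each), so siFUBP1 held 0.652 of the control sum. These sums were taken without the GC and length correction, in which AGRN moved from a log2 fold change of -0.72 to -0.10. HSPG2 moved from -1.13 to -0.47 and GPC1 from -0.44 to 0.01. AGRN alone made up 51.0% of the sum in siMock and 47.9% in siFUBP1.

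Syndecans are transmembrane carriers that present growth factors to receptors and also signal inward. SDC3 (ENSG00000162512, chromosome 1, 30869467 to 30908761, minus strand) stood at 34.8, 37.1 and 32.6 CPM in siMock and 14.0, 13.3 and 10.5 CPM in siFUBP1. The groups did not overlap, and the log2 fold change was -1.47 (SE 0.11, edgeR adjusted p = 2.02e-11), or -1.12 after the correction. SDC1 fell from 88.4, 89.3 and 74.1 CPM to 47.9, 48.5 and 51.1 CPM, a log2 fold change of -0.77 (SE 0.09, edgeR adjusted p = 2.37e-08), or -0.53 corrected. SDC4 was at 57.5, 55.2 and 56.1 CPM in siMock and 58.8, 67.1 and 60.7 CPM in siFUBP1, with a log2 fold change of 0.14 (edgeR adjusted p = 0.138), and all its siFUBP1 values lay above all its siMock values. SDC2 had 1 count in 1 siMock sample. By FPKM, SDC4 gave 43.3% ± 2.4 of the syndecans in siMock and 60.6% ± 1.7 in siFUBP1, SDC1 46.8% ± 2.4 and 34.9% ± 1.9, and SDC3 9.89% ± 0.34 and 4.54% ± 0.71 (SD, n = 3 each). These shares were not corrected for GC content.

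Promoters of 31 of the 37 genes were matched in RefSeq (GRCh38.p14), from 250 bases before to 50 after the start. Those shown were chosen as examples after the values were seen: HS6ST1 and SDC3, which fell, each with a paralogue that did not pass the test, HS6ST2 and SDC4, and SULF2 at the start nearest the annotated one. Capitals mark GGGCGG on either strand, a GC box, the motif that Sp1 binds, which 45.0% of 35116 promoters hold.
HS6ST1, chr2:128318819-128319118, minus strand: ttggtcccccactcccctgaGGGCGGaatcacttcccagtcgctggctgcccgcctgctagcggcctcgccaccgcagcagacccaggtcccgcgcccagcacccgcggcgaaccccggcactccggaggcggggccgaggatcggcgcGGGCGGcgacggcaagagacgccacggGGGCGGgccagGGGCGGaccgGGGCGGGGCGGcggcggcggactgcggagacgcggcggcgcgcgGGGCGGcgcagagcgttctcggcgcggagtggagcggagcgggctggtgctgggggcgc
HS6ST2, chrX:132961321-132961620, minus strand: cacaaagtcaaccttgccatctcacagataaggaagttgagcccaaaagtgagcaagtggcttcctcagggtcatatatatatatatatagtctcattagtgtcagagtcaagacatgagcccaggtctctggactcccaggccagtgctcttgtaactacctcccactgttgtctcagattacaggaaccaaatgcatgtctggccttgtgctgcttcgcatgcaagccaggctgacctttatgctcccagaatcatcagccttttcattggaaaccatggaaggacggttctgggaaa
SDC3, chr1:30908709-30909008, minus strand: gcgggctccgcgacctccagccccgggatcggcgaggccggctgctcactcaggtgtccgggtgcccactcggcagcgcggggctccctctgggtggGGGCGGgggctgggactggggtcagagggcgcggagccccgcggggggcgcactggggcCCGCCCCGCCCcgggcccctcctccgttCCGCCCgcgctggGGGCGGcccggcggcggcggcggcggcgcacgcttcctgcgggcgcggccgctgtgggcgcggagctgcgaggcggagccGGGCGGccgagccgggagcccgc
SDC4, chr20:45348375-45348674, minus strand: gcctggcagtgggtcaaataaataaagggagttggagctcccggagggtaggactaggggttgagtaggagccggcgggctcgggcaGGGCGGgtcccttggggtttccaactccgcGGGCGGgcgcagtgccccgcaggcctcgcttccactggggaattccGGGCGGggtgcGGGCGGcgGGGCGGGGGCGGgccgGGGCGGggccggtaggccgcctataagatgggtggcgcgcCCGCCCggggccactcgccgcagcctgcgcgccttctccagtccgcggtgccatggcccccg
SULF2, chr20:47786578-47786877, minus strand: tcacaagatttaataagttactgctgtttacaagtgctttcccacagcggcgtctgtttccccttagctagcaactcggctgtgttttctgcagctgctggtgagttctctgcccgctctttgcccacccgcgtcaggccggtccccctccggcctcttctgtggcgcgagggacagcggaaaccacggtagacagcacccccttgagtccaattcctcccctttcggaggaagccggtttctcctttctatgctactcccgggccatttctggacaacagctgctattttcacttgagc
HS6ST1 held 7 matches and SDC3 6, and these genes fell. HS6ST2 held 0 and SDC4 8, and these did not pass the test. Of the other paralogues, SDC1 held 1 and fell, and HS6ST3 held 0 and did not pass the test. SULF2 held 0 at this start, and 0, 1 and 5 at its other listed starts. The RefSeq start of HS6ST1 lies 291 bases from the start in the files' annotation. Beyond these families, B4GALT7 held 5 and XYLT2 3, and both rose. B3GAT3 held 4 and EXTL2 2, and neither passed the test. Of further genes that fell, HSPG2 held 10, GLCE 5, GPC1 and HS2ST1 4 each, and HPSE 0 at its nearest start. Matches were thus found in genes that fell, in genes that rose and in genes that did not pass the test. They are a description of these windows.

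Glypicans are carriers held to the membrane by a lipid anchor. GPC2 (ENSG00000213420, chromosome 7, 100169606 to 100177372, minus strand) stood at 12.4, 11.04 and 7.35 CPM in siMock and 4.08, 4.95 and 3.49 CPM in siFUBP1. The siMock values were spread from 7.35 to 12.4 CPM, and the groups did not overlap. The log2 fold change was -1.301 (SE 0.19, edgeR adjusted p = 1.91e-06), or -1.07 after the correction. GPC5 fell from 15.5, 16.4 and 15.7 CPM to 10.3, 9.84 and 12.6 CPM, a log2 fold change of -0.54 (SE 0.13, edgeR adjusted p = 6.81e-04). GPC1, the most abundant glypican, stood at 213.2, 208.5 and 173.4 CPM in siMock and 152.6, 148.9 and 137.6 CPM in siFUBP1. It fell by 0.44 on the log2 scale (edgeR adjusted p = 6.05e-05), but after the correction for GC content, 66.7% in this gene, and length the value was 0.01 (edgeR adjusted p = 0.890). GPC3, GPC4 and GPC6 had no count in any sample.

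Perlecan and agrin are large matrix proteins that hold chains in basement membranes. HSPG2, which encodes perlecan (ENSG00000142798, chromosome 1, 21822245 to 21937297, minus strand), stood at 390.1, 489.4 and 429.5 CPM in siMock and 256.1, 175.6 and 166.8 CPM in siFUBP1. The groups did not overlap, but siFUBP1 replicate 1 lay above the other 2. The log2 fold change was -1.13 (SE 0.17, edgeR adjusted p = 5.65e-04) and -0.47 after the correction (edgeR adjusted p = 0.0357). HSPG2 did not pass in 2 of 16 alternative settings, both blocked on the replicate number (edgeR adjusted p up to 0.143). It shares 11.7% of its exonic bases with LDLRAD2 on the opposite strand, which had 31 counts over all samples. AGRN stood at 1364, 1248 and 1134 CPM in siMock and 757.1, 772.8 and 749.2 CPM in siFUBP1. It fell by 0.72 (SE 0.08, edgeR adjusted p = 4.65e-08), and after the correction the value was -0.10 (edgeR adjusted p = 0.195), so the call was lost. Of the bases of its longest transcript 67.5% are G or C, and fold changes over the whole table fell with GC content.

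**Figure D3:**
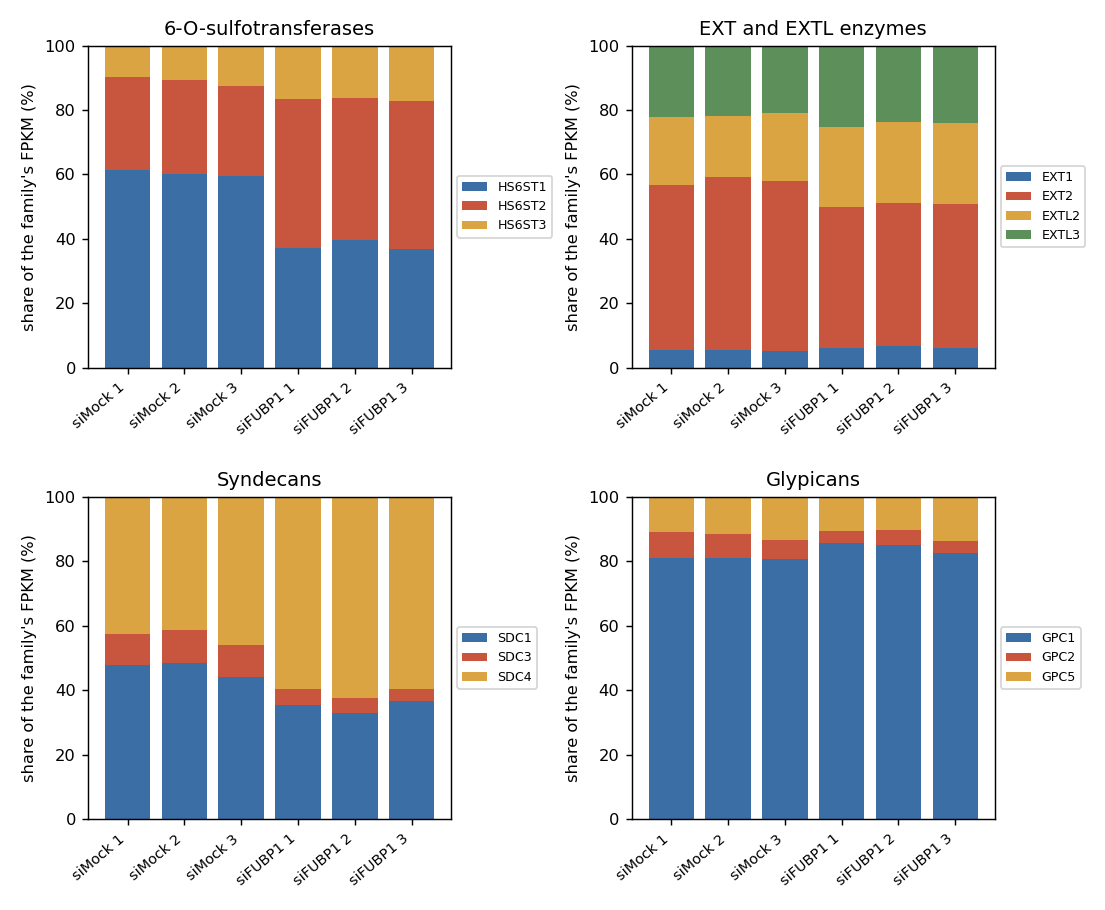
Share of each paralogue in the summed FPKM of its family (percent), in each of the 3 siMock and 3 siFUBP1 samples. The FPKM were not corrected for GC content. In the 6-O-sulfotransferases HS6ST1 made up 59.6 to 61.4% in siMock and 36.8 to 39.5% in siFUBP1, and in the syndecans SDC4 made up 41.2 to 46.0% and 59.5 to 62.6%.

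Genes around the pathway were described from 7 further lists with 80 genes, of which 66 were tested, 21 (31.8%) rose and 31 (47.0%) fell. The background over all genes tested was 30.1% in each direction, and the counts of each list below are to be read against it. Their median log2 fold change was -0.18.

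The linkage and synthesis list held 7 genes, of which 3 were tested and 1 fell. It was PXYLP1, the phosphatase that acts on the xylose of the linkage region, at 4.83, 3.76 and 3.32 CPM in siMock and 1.3, 1.32 and 1.66 CPM in siFUBP1 (log2 fold change -1.47, edgeR adjusted p = 2.01e-05). Among the 15 genes listed around the sugar and sulfate donors, not all of which supply a donor, 6 rose and 6 fell. None of them changed by a log2 fold change beyond 1. PAPSS2, which makes the sulfate donor PAPS and had the highest FPKM of the list, rose from 161.8, 181.0 and 169.2 CPM to 199.8, 194.1 and 203.7 CPM (log2 fold change 0.22, edgeR adjusted p = 0.0128, and 0.0649 without siMock replicate 1).

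In the lysosome, where heparan sulfate is broken down, 7 of 10 genes fell and 2 rose. HGSNAT, the acetyltransferase of this breakdown, fell from 76.8, 88.9 and 85.2 CPM to 32.2, 27.6 and 37.2 CPM, a log2 fold change of -1.37 (SE 0.10, edgeR adjusted p = 6.04e-12). IDUA, alpha-L-iduronidase, fell from 41.5, 39.5 and 34.1 CPM to 13.95, 13.4 and 10.9 CPM, a log2 fold change of -1.59 (SE 0.11, edgeR adjusted p = 3.97e-12), or -1.13 after the GC and length correction. IDUA shares 534 exonic bases with SLC26A1 on the opposite strand.

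The chondroitin sulfate arm uses the same linkage region. Of its 16 genes, 15 were tested, 8 fell and 4 rose. CHST13, a chondroitin 4-O-sulfotransferase, fell from 16.9, 11.8 and 11.4 CPM to 2.36, 1.21 and 1.54 CPM, a log2 fold change of -2.97 (SE 0.22, edgeR adjusted p = 2.01e-11), or -2.53 corrected. CHST12, another chondroitin 4-O-sulfotransferase, fell by 1.23 (edgeR adjusted p = 1.28e-08), and the corrected value was -0.82.

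Of 9 other carriers and partners, 5 fell and 2 rose. COL18A1, a collagen that carries heparan sulfate, fell from 367.0, 329.2 and 291.1 CPM to 99.9, 106.8 and 103.4 CPM, a log2 fold change of -1.67 (SE 0.09, edgeR adjusted p = 8.02e-15), or -1.08 after the GC and length correction. It shares 16.4% of its exonic bases with SLC19A1 on the opposite strand. GPLD1, a phospholipase that cuts glypican anchors, fell by 1.301 (edgeR adjusted p = 1.86e-04).

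Among 15 ligands that bind heparan sulfate, 7 were tested, 4 fell and 1 rose. VEGFA rose from 130, 115.1 and 131.3 CPM to 274.7, 317.0 and 277.7 CPM, a log2 fold change of 1.21 (SE 0.08, edgeR adjusted p = 2.17e-12), or 1.59 corrected. PDGFA fell by 1.29 (edgeR adjusted p = 3.26e-13) and MDK by 1.02 (edgeR adjusted p = 0.00319; corrected -0.84), the latter at 1.201 to 3.64 CPM over all samples.

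Of 8 transcripts that FGF signalling is known to induce, 7 were tested, 6 rose and none fell, with a median log2 fold change of 0.85. DUSP6, a phosphatase that limits ERK, rose from 4.16, 3.82 and 3.20 CPM to 8.87, 9.96 and 8.58 CPM (log2 fold change 1.29, edgeR adjusted p = 3.73e-07). SPRY2, an inhibitor of receptor signalling, rose from 2.94, 2.47 and 3.71 CPM to 7.15, 6.79 and 7.03 CPM (log2 fold change 1.21, edgeR adjusted p = 5.34e-06). Both were low, under 10 CPM in every sample.

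**Figure D4:**
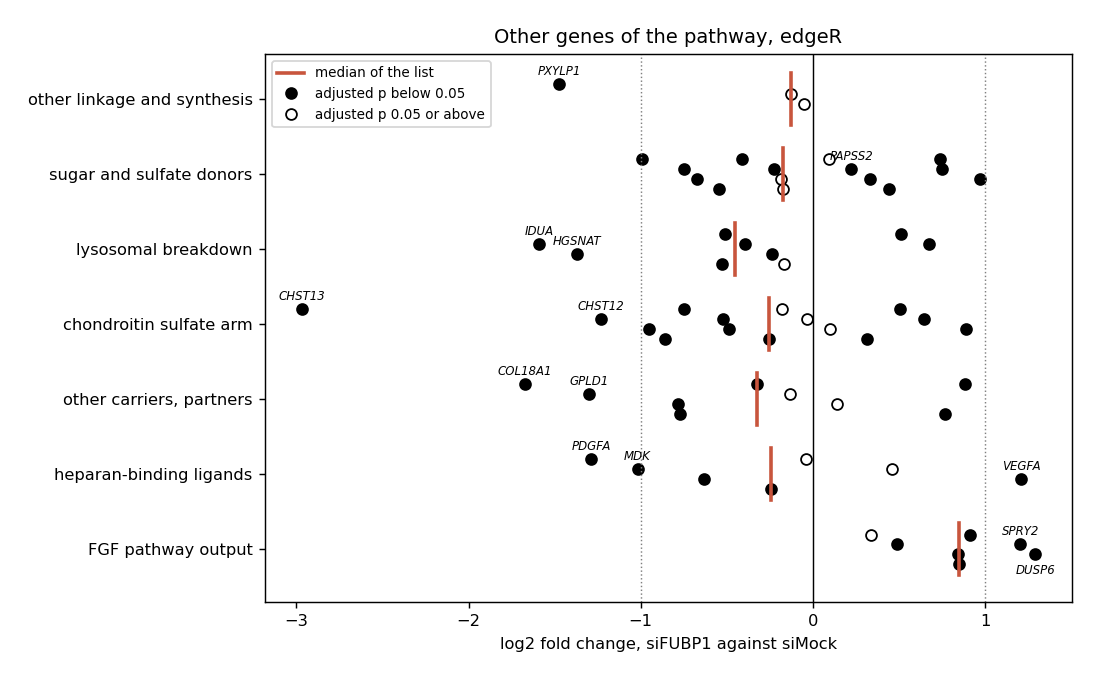
Log2 fold change, siFUBP1 against siMock, of the tested genes of 7 lists around the heparan sulfate pathway, 1 lysosomal gene left out (points, filled where the adjusted p was below 0.05) with each list's median (red bars). IDUA and HGSNAT lie left of -1 in the lysosomal list, and 6 of the 7 FGF output transcripts are filled and lie right of 0.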

How the data were processed

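All 6 samples were grouped by their titles. The authors deposited 1 table with read counts per gene, not normalized. FPKM values in it were computed by the authors as counts per gene length and scaled library size. The columns of group mean signal that the authors deposited and the log2 fold changes and p-values of the authors' own DESeq2 comparison were not used. The submitters' processing notes name HISAT2 2.0.5, StringTie 1.3.3b, featureCounts 1.5.0-p3 and DESeq2 1.16.1, with use of strand not stated. Libraries were poly(A)-selected. Identifiers, starts and ends matched GENCODE release 29 (GRCh38). The genes of the 37-gene list and all other lists were chosen with earlier results of these data known.

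Counts were filtered by edgeR's expression filter, scaled by TMM (factors 0.959 to 1.05) and compared with edgeR 4.0.16 in R 4.3.3 (quasi-likelihood, robust), with Benjamini-Hochberg adjustment over 16116 genes. The fit was tested on simulated data. Library totals were 16309900 to 17484313, so that 3 reads correspond to 0.172 to 0.192 CPM after TMM scaling, and limits cover counting error only. All pairs of samples differed by more than sampling noise (chi-square per gene of at least 5.37). Changed genes with a log2 fold change beyond 1 were given in full, those below 1 with their values, and of other lists the genes beyond 1 or, with none, the gene of highest FPKM, except 1 gene that is counted but not reported here.

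The GC content and length offset was a smooth trend per sample (span 0.3) over genes averaging 50 counts or more. Alternatives were DESeq2 1.42.0, RLE and upper-quartile factors, 2 filters, limma 3.58.1 on log2(FPKM + 1) and log2(FPKM + 0.1), a fit blocked on the replicate number, and fits without each sample in turn.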

Additional observations from a re-analysis of the deposited data

How the results depend on the processing

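The fall of SULF2, HS6ST1, SDC3, GPC2, GLCE, HS2ST1, SDC1, GPC5 and EXT2 and the rise of B4GALT7 kept their direction and passed the test under all 16 alternatives. With GC content and length correction the direction turned for EXTL2 (-0.065), NDST1 (0.0283) and GPC1 (0.0103), and with the replicate block and that correction the values were -0.065, 0.0292 and 0.0108. With a sample left out EXTL2 ranged from -0.00413 to 0.0838, with -3.56e-04 in one case, and HS6ST3 from -0.0145 to 0.12, and neither gene passed the test in any setting.

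Of the 37 genes, 2 rose, against 1 with DESeq2, with limma on log2(FPKM + 1) and with limma on log2(FPKM + 0.1), and 1 to 3 when a sample was left out. Past a log2 fold change of 1, 0 rose, against 0 to 1 when a sample was left out (EXTL1, which entered the test), and 5 fell, against 9 at a threshold of 0.58. Of the other lists, 3 rose past 1, against 1 with limma on log2(FPKM + 1) and 14 at 0.58, and 10 fell, against 6 and 19. Over all genes tested 1315 rose and 1472 fell past 1, against 731 and 931 when only genes averaging 50 counts or more were kept, 462 and 588 with limma on log2(FPKM + 1), and 2810 and 2870 at 0.58. The stricter filter tested fewer genes and the added constant shrinks low genes; the other causes were not tested.

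The replicate numbers did not clearly pair the samples: deviations of same-numbered samples correlated at 0.0282, 0.0461 and 0.236. While siMock 1 correlated best with siFUBP1 2 (0.145), siMock 2 and siMock 3 each correlated best with the siFUBP1 sample of the same number. These values do not settle whether the samples were paired. With the replicate block, 13 of the 37 genes fell and 2 rose, and HSPG2 no longer passed the test (log2 fold change -1.15, edgeR adjusted p = 0.0525, and -0.48 and 0.143 with the GC content and length correction too).

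With 3 samples a group the exact test of 1 value cannot go below 0.1. Genes with fewer than about 20 counts, such as NDST2, EXTL1 and SULF1 in siFUBP1, are set by few reads.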
